A study of Homo sapiens with 8 samples.

Results

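The MYC, MAX and MXD network was followed here through 10 genes whose common name in the deposited tables is MYC, MAX, MXI1, MXD1, MXD3, MXD4, MNT, MGA, MLX or MLXIP. The tables list them as MYC (ENSG00000136997), MAX (ENSG00000125952), MXD1 (ENSG00000059728), MXI1 (ENSG00000119950), MXD3 (ENSG00000213347), MXD4 (ENSG00000123933), MNT (ENSG00000070444), MGA (ENSG00000174197), MLX (ENSG00000108788) and MLXIP (ENSG00000175727). All 10 had counts in every library, among 16608 genes with counts in all libraries, and all 10 passed the filter on low counts. The cells were SupB15, an established human line of precursor B-cell acute lymphoblastic leukemia with the Philadelphia chromosome. Total RNA was sequenced in 8 libraries, with 2 independent samples for each of 4 treatments. The controls received the solvent DMSO for 46 h. The second group received 1035 at 2 µM for 46 h, a compound that the series title calls an inhibitor of histone deacetylases (HDAC). The third group, written Doxo, received 0.1 µM doxorubicin for 10 h, an anthracycline that traps topoisomerase II on DNA. The combination, written 1035+Doxo, received 2 µM 1035 for 36 h and then 0.1 µM doxorubicin for 10 h. The presence of 1035 in those last 10 h was not given in the sources used here. No vehicle control of 10 h was among the groups. All groups share the same cell line, so every value below describes 1 leukemia.

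MYC is a transcription factor that binds DNA as a pair with MAX, mostly at the sequence CACGTG, called an E-box, and raises genes of growth and metabolism. MXD1, MXI1, MXD3, MXD4 and MNT compete with MYC for MAX at such sites and recruit the SIN3 co-repressor, whose enzymes are histone deacetylases. MGA also pairs with MAX and is the scaffold of the Polycomb complex PRC1.6, while MLX pairs with MLXIP (MondoA), which responds to sugar phosphates, and with some MXD proteins. In precursor B cells MYC is known for driving growth and division.

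The genes that passed here in the comparison of 1035 with DMSO were MYC and MLX, which fell, and MAX, MXI1, MXD3 and MLXIP, which rose. Promoter sequences of the network and its outputs are shown first, because the members are known to bind E-boxes. The RefSeq table (GRCh38.p14) held 14 promoters of 9 members, and MYC had no entry in it. In the 250 bases before each start, read on both strands, CACGTG was in 3 of these 14 promoters, against 2228 of 35116 promoters (6.34%) in the whole table. The 3 members were MXD4, where it began 238 bases before the start (chr4:2262110-2262359, minus strand), MNT, at 193 bases (chr17:2401061-2401310, minus strand), and MLX, at 50 bases (chr17:42566850-42567099, plus strand). A longer motif, a pair of CACGNG with 5 bases between them, which can overlap with CACGTG, resembles the element described for MondoA and MLX. It was in 16 of the 35116 promoters (0.0456%), and in none of the 14 of the members. One of the 16 was a start of TXNIP, an arrestin-like inhibitor of glucose uptake (chr1:145996580-145996829, minus strand), 88 bases before the start. ARRDC4, a relative of TXNIP, held CACGTG 210 bases before its start (chr15:97960453-97960702, plus strand). Capitals mark the motif in each of the 5 sequences, which run 5′ to 3′ toward the start. A match describes letters only and says nothing about binding.
MXD4: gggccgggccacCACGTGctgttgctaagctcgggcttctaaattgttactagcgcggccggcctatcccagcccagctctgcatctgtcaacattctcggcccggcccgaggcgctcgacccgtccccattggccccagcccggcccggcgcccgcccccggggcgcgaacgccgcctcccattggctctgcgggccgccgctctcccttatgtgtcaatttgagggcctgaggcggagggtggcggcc
MNT: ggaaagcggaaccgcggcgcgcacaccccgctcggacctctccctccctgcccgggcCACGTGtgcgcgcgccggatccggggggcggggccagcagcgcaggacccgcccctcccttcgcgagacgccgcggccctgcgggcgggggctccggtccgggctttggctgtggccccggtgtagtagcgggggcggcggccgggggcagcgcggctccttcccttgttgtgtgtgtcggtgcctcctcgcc
MLX: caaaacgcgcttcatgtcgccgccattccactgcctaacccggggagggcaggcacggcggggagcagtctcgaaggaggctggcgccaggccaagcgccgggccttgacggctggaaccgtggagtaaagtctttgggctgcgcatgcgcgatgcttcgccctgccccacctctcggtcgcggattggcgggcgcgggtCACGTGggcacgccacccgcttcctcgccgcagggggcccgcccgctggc
TXNIP: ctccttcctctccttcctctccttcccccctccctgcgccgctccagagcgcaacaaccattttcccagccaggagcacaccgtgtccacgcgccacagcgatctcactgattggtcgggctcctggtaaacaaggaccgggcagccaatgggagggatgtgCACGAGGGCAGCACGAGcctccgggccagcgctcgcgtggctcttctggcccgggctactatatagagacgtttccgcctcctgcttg
ARRDC4: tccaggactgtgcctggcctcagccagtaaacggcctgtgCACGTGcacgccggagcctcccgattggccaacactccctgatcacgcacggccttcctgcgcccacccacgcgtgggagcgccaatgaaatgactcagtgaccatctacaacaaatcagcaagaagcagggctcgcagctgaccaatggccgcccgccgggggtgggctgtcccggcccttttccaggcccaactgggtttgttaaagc

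The libraries held 11760542 to 18144670 counted reads, and a member had 105 to 5131 reads in a library, the fewest for MXI1. All 10 markers of B-cell precursors, such as PAX5, had counts, and their summed level was 3699 to 3826 CPM (counts scaled to library depth) in DMSO, 2678 to 2691 with 1035, 3567 to 3738 with doxorubicin and 2629 to 2638 in the combination. Among markers of other cells, 1 of 7 for T and NK cells, 4 of 5 myeloid, 0 of 4 erythroid or megakaryocytic and 2 of 5 stromal genes had counts in all libraries, and the others were not analysed here. The summed level of the T and NK marker was 9.64 to 11.8 CPM over all libraries. The myeloid sum was 20.7 to 23.8 CPM without 1035 and 32.2 to 38.2 with it, and the stromal sum was 25.8 to 30.3 and 64.6 to 71.2. The precursor, myeloid and stromal sums thus differed between libraries with and without 1035, and that of T and NK cells overlapped. Their part in the results was not tested. In bulk RNA, fewer cells of a type and less RNA per cell cannot be told apart.

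Levels of different genes were compared per gene length, in FPKM, that is, reads per kilobase of gene scaled to library depth, recomputed from the counts. MYC was the highest of the 10 in every group, and MXI1 was the lowest in DMSO and Doxo. In DMSO the mean level over 2 libraries was 75.0 FPKM for MYC, 19.9 for MGA, 14.3 for MAX, 13.5 for MLX, 11.2 for MXD3, 9.33 for MLXIP, 5.96 for MXD4, 2.62 for MXD1, 2.15 for MNT and 1.88 for MXI1. No neighbours in that order overlapped in their 2 libraries. With 1035 the order became MYC at 60.6 FPKM, MGA at 18.2, MAX at 18.0, MLXIP at 17.5, MXD3 at 13.0, MLX at 10.5, MXD4 at 6.66, MXI1 at 4.05, MXD1 at 2.84 and MNT at 1.88. There MGA overlapped MAX and MAX overlapped MLXIP, so these 3 levels cannot be ordered. MLXIP thus stood below MLX in DMSO and above it with 1035, and MXI1 stood in the last place in DMSO and above MXD1 and MNT with 1035. Such orders between genes rest on the gene lengths used. The combination gave the order seen with 1035, from 60.7 FPKM for MYC to 1.92 for MNT, with MGA overlapping MAX alone. Doxo gave the order of DMSO, from 73.7 FPKM for MYC to 1.71 for MXI1, with MXD3 overlapping MLXIP.

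**Figure D1:**
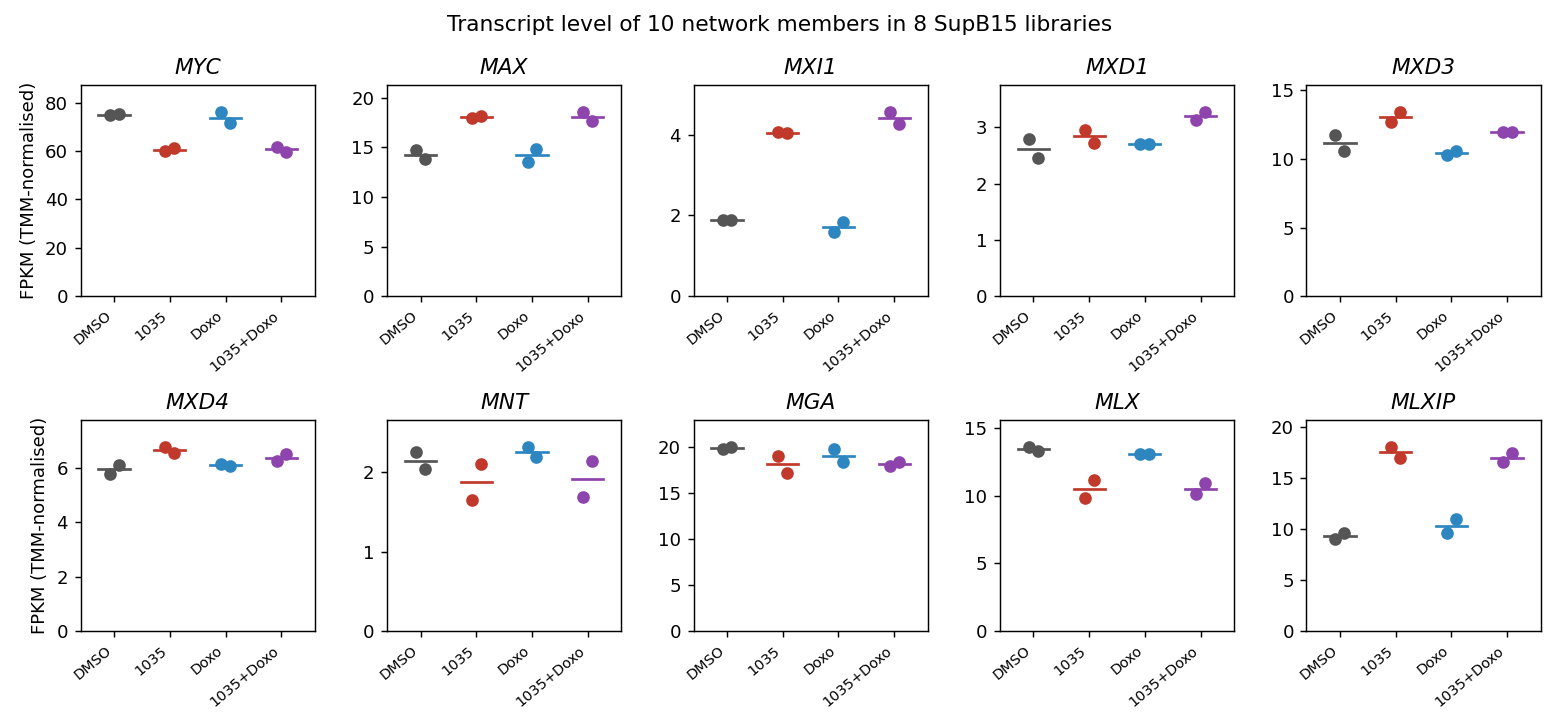
Transcript level of each member in FPKM (vertical axes, each starting at 0) in the 2 libraries of each treatment (points) with their mean (lines). MYC sits at 71.5 to 75.9 FPKM without 1035 and at 59.6 to 61.7 with it, while MXI1 and MLXIP sit higher in all 4 libraries given 1035.

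The effect of 1035 alone was asked by comparing it with DMSO. Of the 10 members, 4 rose and 2 fell past a false discovery rate (FDR) of 0.05, and 4 did not pass (edgeR quasi-likelihood F-test, two-sided). In this comparison 49% of the 16320 genes tested passed, 24.2% higher and 24.8% lower, so a share of this kind is close to that of all genes. Library values of the 2 groups did not overlap for 8 of the 10 members, against 73.9% of all genes. The median log2 fold change was 0.14 over the members and 0.0091 over all genes tested. In the combination against Doxo, which shares no sample with that comparison, 43.8% of all genes passed, 21.8% higher and 22% lower. There again 4 members rose, 2 fell and 4 did not pass, and the 4 and the 2 were the same genes. Values did not overlap for 9 of the 10 members, against 69% of all genes, and the median was 0.13, with 0.0044 over all genes. The stated time with 1035 was 36 h in the combination and 46 h for 1035 alone. All fold changes below are on the log2 scale with their standard error, and adjusted p-values are those of edgeR over all genes.

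MYC stood at 74.9 and 75.2 FPKM in the 2 DMSO libraries, 60.0 and 61.1 with 1035, 75.9 and 71.5 with doxorubicin, and 61.7 and 59.6 in the combination. Every library given 1035 was below every library without it. In 1035 against DMSO, MYC changed by -0.31 ± 0.06 in log2, to 0.807 of the control level (adjusted p = 2.4e-05, edgeR). With doxorubicin present it was -0.28 ± 0.06, or 0.823 of the level in Doxo (adjusted p = 0.00011, edgeR). Over the 16 alternatives run, the first value lay between -0.32 and -0.26 and the second between -0.32 and -0.24, and both passed in each.

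MAX, the shared partner, stood at 14.7 and 13.9 FPKM in DMSO, 17.9 and 18.1 with 1035, 13.6 and 14.8 with doxorubicin, and 18.5 and 17.7 in the combination. It moved the opposite way to MYC, with no overlap between libraries with and without 1035. Its log2 fold change was 0.34 ± 0.07 for 1035 (adjusted p = 9.8e-05, edgeR) and 0.36 ± 0.07 for the combination against Doxo (adjusted p = 5.5e-05, edgeR). The ratio of MYC to MAX transcript, in FPKM, was 5.26 ± 0.23 (SD, n = 2) in DMSO and 5.21 ± 0.54 in Doxo. It was 3.36 ± 0.02 with 1035 and 3.35 ± 0.03 in the combination, below each library without 1035.

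Among the repressors that compete for MAX, MXI1 changed most in fold. It stood at 1.88 and 1.88 FPKM in DMSO, 4.06 and 4.03 with 1035, 1.58 and 1.84 with doxorubicin, and 4.55 and 4.26 in the combination. These values rest on 136 and 131 reads in DMSO, 260 and 229 with 1035, 130 and 105 with doxorubicin, and 276 and 238 in the combination. All 4 libraries given 1035 were above all 4 others. The log2 fold change of MXI1 was 1.11 ± 0.12 for 1035, or 2.15-fold (adjusted p = 4.2e-10, edgeR), and 1.38 ± 0.12 for the combination against Doxo, or 2.61-fold (adjusted p = 2.5e-12, edgeR).

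MXD3, a repressor found in dividing cells, stood at 11.8 and 10.6 FPKM in DMSO, 12.7 and 13.4 with 1035, 10.3 and 10.6 with doxorubicin, and 11.99 and 11.99 in the combination. Its log2 fold change was 0.22 ± 0.07 for 1035 (adjusted p = 0.0121, edgeR) and 0.20 ± 0.07 for the combination against Doxo (adjusted p = 0.0259, edgeR). The libraries did not overlap, but both calls were weak. In the authors' deposited values (DESeq2 1.4.5) the first passed (adjusted p = 0.0400) and the second did not (0.180). The fits that follow were run here. The first was lost with DESeq2 (adjusted p = 0.0553) and in edgeR without DMSO replicate 2 (0.222) or 1035 replicate 2 (0.0977), and the second with DESeq2 (0.102) and in edgeR without Doxo replicate 1 (0.113), 1035+Doxo replicate 1 (0.0875) or 1035+Doxo replicate 2 (0.0907). In GENCODE 29, exons of RAB24 on the same strand cover 18% of the exon bases of MXD3, and exons of PRELID1 on the opposite strand 22.5%. RAB24, a small GTPase of vesicle traffic, had a log2 fold change of 0.94 ± 0.09 for 1035 and 0.91 ± 0.09 for the combination against Doxo, and PRELID1 -0.03 ± 0.07 and 0.02 ± 0.07. How reads in shared exons were counted was not given in the sources used here, which makes the value of MXD3 uncertain.

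MXD1, MXD4 and MNT did not pass in either comparison. MXD1, a repressor of differentiating cells, lay between 2.46 and 3.26 FPKM over the 8 libraries, with a log2 fold change of 0.12 ± 0.11 for 1035 and 0.24 ± 0.11 for the combination against Doxo (adjusted p = 0.0651, edgeR). MXD4 lay between 5.78 and 6.77 FPKM, with 0.16 ± 0.08 (adjusted p = 0.0894, edgeR) and 0.06 ± 0.08. The libraries of MXD1 overlapped between 1035 and DMSO, and those of MXD4 did not. Each gene passed in 1 of these comparisons when genes were kept from a mean normalised count of 50 (adjusted p = 0.0378 for MXD1 in the combination and 0.0230 for MXD4 with 1035, edgeR). MNT, the broadly expressed member of this class, stood at 2.25 and 2.04 FPKM in DMSO, 1.66 and 2.10 with 1035, 2.32 and 2.20 with doxorubicin, and 1.70 and 2.15 in the combination. In both groups given 1035, replicate 1 was the lower of the pair. The log2 fold change of MNT was -0.20 ± 0.12 for 1035 (95% interval -0.44 to 0.04) and -0.24 ± 0.12 for the combination against Doxo (-0.48 to -0.0019). Without 1035 replicate 2 the first became -0.38 (adjusted p = 0.0280, edgeR), and without 1035+Doxo replicate 2 the second became -0.41 (adjusted p = 0.0291, edgeR). Without 1035 replicate 1 and without 1035+Doxo replicate 1 the respective values were -0.03 and -0.07, so a single library decides the size in each case.

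Summed over MXD1, MXI1, MXD3 and MXD4, the repressor transcripts came to 21.6 ± 0.81 FPKM (SD, n = 2) in DMSO, 26.6 ± 0.16 with 1035, 21.0 ± 0.37 with doxorubicin and 26.0 ± 0.09 in the combination. MXI1 made up 8.46% and 8.91% of that sum in DMSO, 15.3% and 15.1% with 1035, 7.62% and 8.67% with doxorubicin, and 17.5% and 16.4% in the combination. MXD3 was the largest part of the sum in each group. The ratio of MYC to the sum was 3.37 and 3.57 in DMSO, 2.27 and 2.29 with 1035, 3.67 and 3.37 with doxorubicin, and 2.38 and 2.29 in the combination. In FPKM, MYC transcript therefore stayed above that of the 4 repressors together in all 8 libraries, by a smaller factor in those given 1035. The size of the sum rests on the gene lengths used and on MXD3, whose value is uncertain because of its shared exons. The ratio of MYC to MXI1 was 39.9 ± 0.13 in DMSO and 15.0 ± 0.24 with 1035, and 43.5 ± 6.5 in Doxo and 13.8 ± 0.29 in the combination (SD, n = 2).

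**Figure D2:**
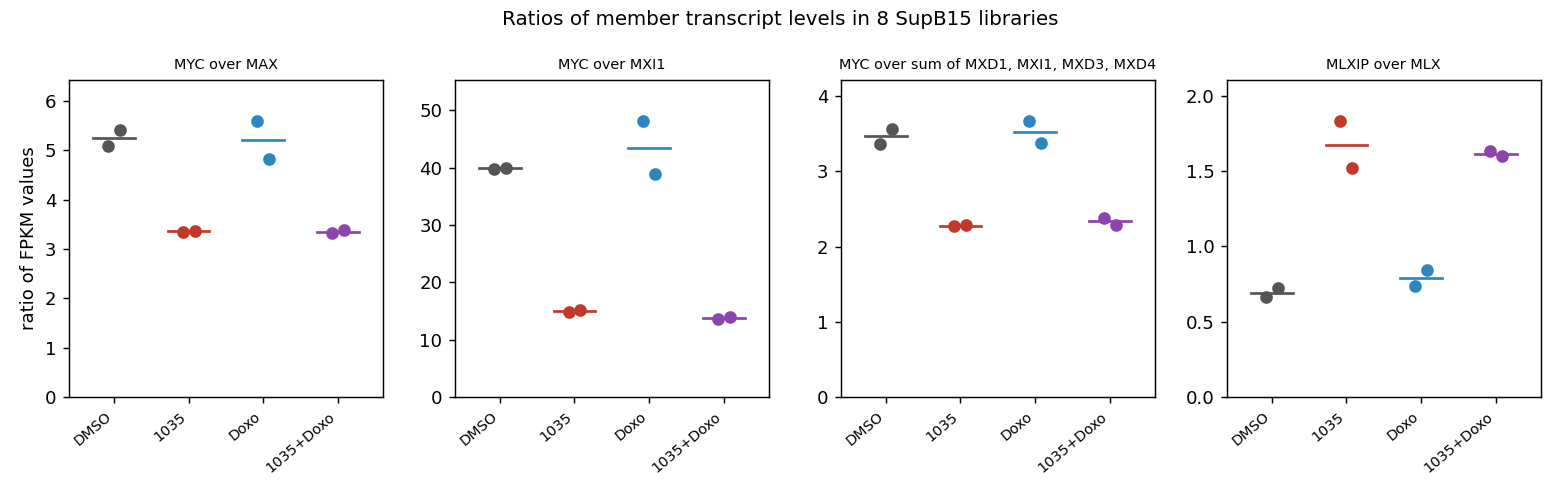
Ratios of member levels in FPKM (vertical axes, each starting at 0) in the 2 libraries of each treatment (points) with their mean (lines). The 3 ratios with MYC on top are lower in all 4 libraries given 1035, and MLXIP over MLX is below 1 in the 4 libraries without it and above 1 in the 4 with it.

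MGA stood at 19.8 and 20.0 FPKM in DMSO, 19.1 and 17.2 with 1035, 19.8 and 18.3 with doxorubicin, and 18.0 and 18.4 in the combination. The log2 fold change was -0.13 ± 0.06 for 1035 (adjusted p = 0.0621, edgeR) and -0.07 ± 0.06 for the combination against Doxo. The libraries of 1035 and DMSO did not overlap, yet the call depends on the fit. MGA passed for 1035 in edgeR without 1035 replicate 1 (adjusted p = 0.0132), Doxo replicate 1 (0.0263) or Doxo replicate 2 (0.0289) and when the 4 libraries of the comparison were fitted alone (0.0290). It also passed in the authors' deposited table, where its adjusted p was 0.0335.

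The MondoA branch changed in both of its partners. MLXIP stood at 9.03 and 9.62 FPKM in DMSO, 18.04 and 17.02 with 1035, 9.63 and 11.02 with doxorubicin, and 16.5 and 17.5 in the combination. Its lowest library with 1035 was well above its highest without. The log2 fold change of MLXIP was 0.91 ± 0.06 for 1035, or 1.88-fold (adjusted p = 5.5e-15, edgeR), and 0.72 ± 0.06 for the combination against Doxo, or 1.65-fold (adjusted p = 3.5e-12, edgeR). MLX stood at 13.6 and 13.4 FPKM in DMSO, 9.86 and 11.2 with 1035, 13.1 and 13.1 with doxorubicin, and 10.1 and 10.9 in the combination. MLX moved the opposite way, again with no overlap. The log2 fold change of MLX was -0.36 ± 0.08 for 1035 (adjusted p = 0.00022, edgeR) and -0.32 ± 0.08 for the combination against Doxo (adjusted p = 0.0012, edgeR). Exons of PSMC3IP on the opposite strand cover 18.1% of the exon bases of MLX in GENCODE 29, and PSMC3IP had -0.27 ± 0.12 (adjusted p = 0.0641, edgeR) and -0.23 ± 0.12. The strand setting of the counting was not given in the sources used here. Reads of these 2 genes may therefore not be told apart. MLXIP over MLX was 0.664 and 0.720 in DMSO and 0.733 and 0.843 with doxorubicin, against 1.83 and 1.52 with 1035 and 1.632 and 1.598 in the combination. In FPKM, MLXIP was thus the lower of the pair in each library without 1035 and the higher in each library with it. This order rests on the gene lengths used, 13924 bases for MLXIP and 4265 for MLX. In CPM, which is not scaled by length, MLXIP was above MLX in DMSO too, with means of 130 and 57.5. The rise of the ratio with 1035 does not depend on the lengths.

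**Figure D3:**
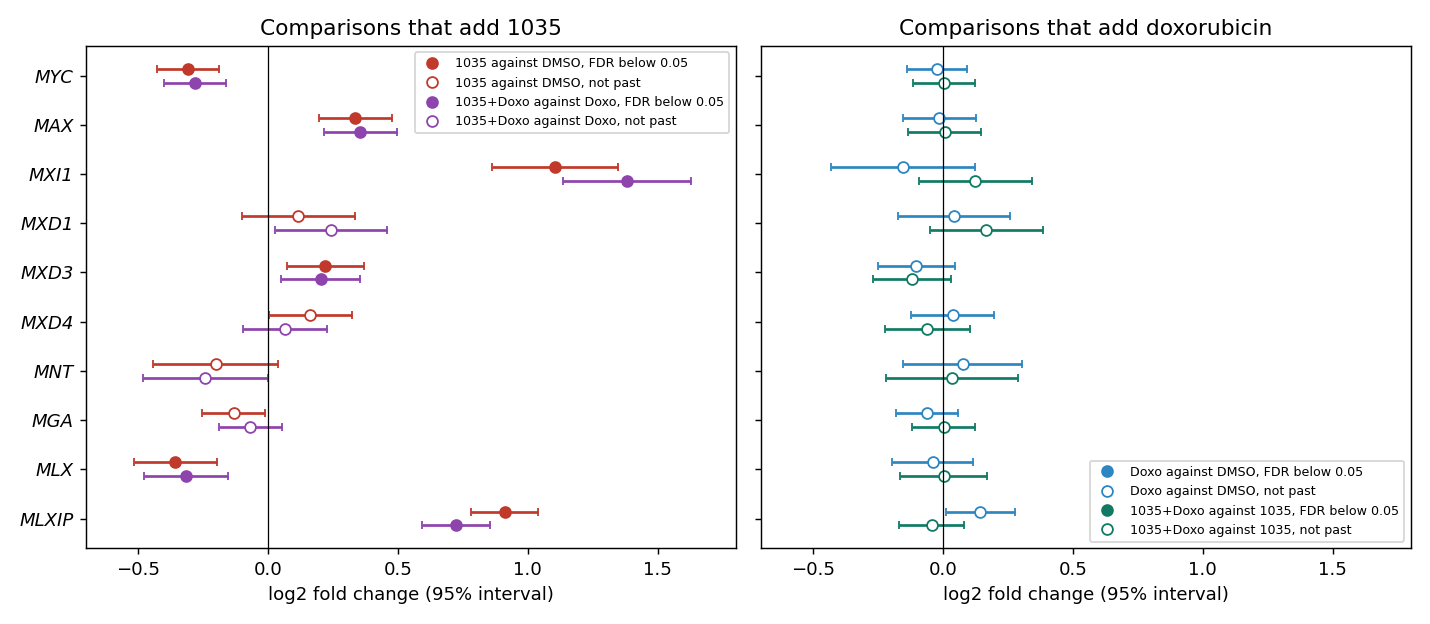
Fold change of each member on the log2 scale (horizontal axis) with its 95% interval (bars), in the comparisons that add 1035 (left) and those that add doxorubicin (right). Filled points passed the FDR of 0.05 in edgeR and open points did not. The 6 filled members are the same for 1035 against DMSO and for 1035+Doxo against Doxo, and no member is filled where doxorubicin was added.

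Doxorubicin alone was compared with DMSO, and no member passed in edgeR, with 1 at an unadjusted p under 0.05 and 0 past the FDR in DESeq2. Over all genes 1.33% passed, 0.784% higher and 0.545% lower, and 2169 of 16320 had an unadjusted p under 0.05. Values did not overlap for 5 members, against 44.7% of all genes. The log2 fold changes ran from -0.15 for MXI1 (95% interval -0.43 to 0.12) to 0.14 for MLXIP (0.01 to 0.28), and MYC had -0.02 (-0.14 to 0.09). MLXIP was the member at an unadjusted p under 0.05 (adjusted p = 0.321, edgeR). Leaving out 1 library gave it log2 fold changes from 0.044 to 0.24, the highest without Doxo replicate 1, so its size depends on single libraries. A change of MYC transcript beyond these bounds at 10 h of 0.1 µM doxorubicin was not detected.

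Doxorubicin after 1035 was compared with 1035 alone, and again no member passed in edgeR, with 0 at an unadjusted p under 0.05 and 0 past the FDR in DESeq2. Over all genes 0.496% passed, 0.349% higher and 0.147% lower, and values did not overlap for 4 members, against 35.3% of all genes. Of the 16320 genes tested, 1110 had an unadjusted p under 0.05. The log2 fold changes ran from -0.12 ± 0.07 for MXD3 to 0.17 ± 0.11 for MXD1, and MYC had 0.0031 ± 0.06 (95% interval -0.12 to 0.12). This comparison also differs by 10 h in the stated time with 1035, and an end of exposure and doxorubicin cannot be told apart.

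The interaction asks if the effect of 1035 differs with doxorubicin. The stated time with 1035 was 36 h with doxorubicin and 46 h without it, so doxorubicin and this time cannot be told apart here. No member passed in edgeR, with 1 at an unadjusted p under 0.05 and 0 past the FDR in DESeq2. Over all 16320 genes 0.0184% passed (3 genes, all higher), and 786 had an unadjusted p under 0.05. The member at an unadjusted p under 0.05 was MLXIP, with a difference of -0.19 ± 0.09 between the 2 log2 fold changes (95% interval -0.37 to -0.0054, adjusted p = 0.952, edgeR). For MXI1 the difference was 0.28 ± 0.17, with an interval from -0.08 to 0.63. Neither difference was thus shown.

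The outputs of the network were read from a list of 30 genes known as E-box targets of MYC. In 1035 against DMSO 24 of 30 fell, against 24.8% of all genes, none rose (in edgeR or DESeq2) and 6 did not pass. At an unadjusted p under 0.05 there were 25, all lower, against 8806 of the 16320 genes tested, in either direction. The median log2 fold change was -0.42 against 0.0091 over all genes. In the combination against Doxo 24 of 30 fell, against 22% of all genes, none rose (in edgeR or DESeq2) and 6 did not pass. At an unadjusted p under 0.05 there were 27, all lower, against 8114 of all genes tested, in either direction. The median was -0.38, and 23 genes fell in both comparisons. ODC1, the first enzyme of polyamine synthesis, stood at 149 and 150.2 FPKM in DMSO, 61.1 and 66.1 with 1035, 144 and 128 with doxorubicin, and 65.5 and 61.8 in the combination. Its log2 fold change was -1.23 ± 0.06 and -1.09 ± 0.06. In 1035 against DMSO its 95% interval, -1.36 to -1.11, lay apart from that of MYC, -0.43 to -0.19. CAD, which starts pyrimidine synthesis, had -0.84 ± 0.06 and -0.80 ± 0.06, PRDX3, a mitochondrial peroxidase, had -0.75 ± 0.06 in the first comparison, and LDHA, which makes lactate, had -0.72 ± 0.06 in the second. TFAP4, a transcription factor of the same helix-loop-helix class, was singled out after its values were seen, and had -0.87 ± 0.09 and -1.13 ± 0.10. Some targets with like roles did not pass in either comparison. FBL, which methylates ribosomal RNA, had -0.01 ± 0.07 and -0.02 ± 0.07, and AMD1, another enzyme of polyamine synthesis, had -0.04 ± 0.06 and 0.04 ± 0.06, both also chosen after their values were seen. Falls of ODC1, CAD and other targets were known in these data when the list was chosen, so its direction is not independent evidence. No gene of this list passed for doxorubicin against DMSO (edgeR, 9 at an unadjusted p under 0.05), for the combination against 1035 (3) or in the interaction (2). Of the 16320 genes tested, 2169, 1110 and 786 had an unadjusted p under 0.05 there, in that order.

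The 2 listed targets of MondoA and MLX both rose in each comparison, where 24.2% and 21.8% of all genes rose. This list too was chosen with earlier results of these data known, so its direction is not independent evidence. TXNIP stood at 22.3 and 20.4 FPKM in DMSO, 35.7 and 31.3 with 1035, 20.7 and 22.0 with doxorubicin, and 30.8 and 30.6 in the combination. Its log2 fold change was 0.65 ± 0.07 (adjusted p = 1.4e-10, edgeR) and 0.53 ± 0.07 (adjusted p = 2.7e-08, edgeR), with no overlap of libraries with and without 1035. ARRDC4 had few reads, with 10 and 12 counts in DMSO, 32 and 23 with 1035, 11 and 7 with doxorubicin, and 30 and 21 in the combination. Its log2 fold change was 1.54 ± 0.38 (adjusted p = 0.00084, edgeR) and 1.75 ± 0.40 (adjusted p = 0.00043, edgeR), and it was not tested when a mean normalised count of 50 was required. The TXNIP promoter printed above holds the paired motif and the ARRDC4 promoter holds a CACGTG. A second listed start of TXNIP (chr1:145995745-145995994, minus strand) held neither motif. A part of these motifs in the rise was not tested.

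The SIN3 co-repressor, which MXD proteins and MNT recruit, had 10 listed subunits. With 1035 against DMSO 5 rose and 1 fell, with a median of 0.14, where 24.2% of all genes rose and 24.8% fell. The scaffolds SIN3A and SIN3B had log2 fold changes of 0.34 ± 0.07 and 0.35 ± 0.07, and ARID4A, a subunit that reads chromatin, had 0.39 ± 0.08. In the combination against Doxo 3 rose and 1 fell, with a median of 0.11, where 21.8% of all genes rose and 22% fell, and SIN3A did not pass there, with 0.14 ± 0.07 (adjusted p = 0.105, edgeR). ARID4A had 0.40 ± 0.08, SIN3B 0.30 ± 0.07 and SUDS3, a subunit that joins the deacetylase, 0.20 ± 0.06. BRMS1 was the subunit that fell, with -0.21 ± 0.07 and -0.22 ± 0.07. Without DMSO replicate 1 or 2 or 1035 replicate 1 the call of BRMS1 for 1035 was lost (adjusted p = 0.0683, 0.0839 and 0.302, edgeR), and without Doxo replicate 2 or 1035+Doxo replicate 2 that for the combination (0.0614 and 0.153). DESeq2 gave BRMS1 adjusted p-values of 0.0653 and 0.0533. SUDS3 in the combination was lost without Doxo replicate 1 (adjusted p = 0.117, edgeR) or 1035+Doxo replicate 2 (0.0553), and without Doxo replicate 2 the count of subunits that rose there was 5. With either Doxo library left out, 2 subunits fell with 1035.

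The complex built on MGA was read from 9 other subunits of PRC1.6. With 1035, 2 rose and 5 fell (median log2 fold change -0.22), and in the combination against Doxo the same 2 rose and the same 5 fell (median -0.23). Over all genes 24.2% rose and 24.8% fell in the first comparison and 21.8% and 22% in the second. RYBP, which links the complex to its ubiquitin ligase, had 0.60 ± 0.06 and 0.54 ± 0.06, and the ligase subunit RING1 had 0.38 ± 0.09 and 0.28 ± 0.09. L3MBTL2, which binds chromatin, had -0.42 ± 0.07 and -0.39 ± 0.07, and CBX3, a heterochromatin protein, had -0.38 ± 0.06 and -0.28 ± 0.06. PCGF6, the ring finger subunit specific to this complex, had -0.56 ± 0.10 with 1035, and TFDP1, the partner of E2F factors, had -0.41 ± 0.07 in the combination against Doxo. Without 1035+Doxo replicate 2 the call of RING1 in the combination was lost (adjusted p = 0.0730, edgeR), which leaves 1 subunit that rose, as did DESeq2 (0.0550).

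Among 16 genes for co-activators and turnover of MYC, 1 rose and 8 fell with 1035 (median log2 fold change -0.16), and 2 rose and 8 fell in the combination against Doxo (median -0.21), 7 of them in both. Over all genes 49% passed in the first comparison, 24.2% higher and 24.8% lower, and 43.8% in the second, 21.8% higher and 22% lower. In the first comparison the number that passed in either direction is thus near that of all genes. By direction more of the list fell than rose in both, whereas all genes were split nearly evenly. A cause of this was not tested. HCFC1, a chromatin cofactor of MYC, stood at 22.2 and 22.6 FPKM in DMSO, 12.8 and 13.7 with 1035, 23.8 and 27.3 with doxorubicin, and 13.8 and 13.5 in the combination. Its log2 fold change was -0.76 ± 0.06 and -0.90 ± 0.06. The acetyltransferases KAT5 and KAT2A had -0.75 ± 0.08 and -0.59 ± 0.07 with 1035, and -0.71 ± 0.08 and -0.47 ± 0.07 in the combination against Doxo. USP28, which removes ubiquitin from MYC, rose in the combination, with 0.21 ± 0.06, and its call was lost without 1035+Doxo replicate 1 (adjusted p = 0.0741, edgeR). The count that rose in the combination was 1 without Doxo replicate 1 or either 1035+Doxo library. With 1035 alone the count that rose was 2 or 3 without DMSO replicate 2, 1035 replicate 2 or any library that received doxorubicin. ZBTB17 (MIZ1), through which MYC represses genes, had -0.06 ± 0.08 in both comparisons and did not pass. MYCN, MYCL and MLXIPL, the close relatives of MYC and MLXIP, were not analysed here.

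**Figure D4:**
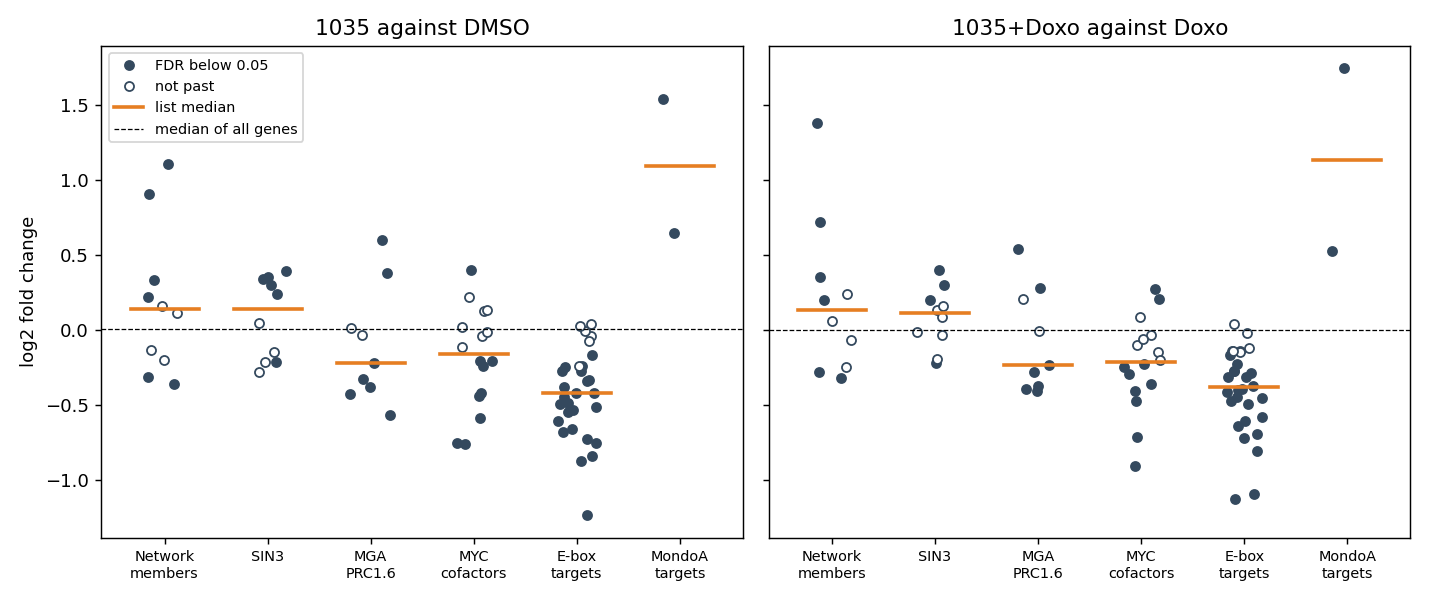
Fold change on the log2 scale (vertical axis) of each network member and of each gene in the lists of related genes (columns), for 1035 against DMSO (left) and 1035+Doxo against Doxo (right). Filled points passed the FDR of 0.05 in edgeR, orange lines are list medians, and the dashed line is the median of all genes. No E-box target of MYC rose, and 24 of 30 fell in each panel.

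TRRAP and EP400, large subunits of an acetyltransferase complex that MYC recruits, were the only listed genes that passed for doxorubicin against DMSO in edgeR. TRRAP stood at 12.6 and 12.4 FPKM in DMSO and 14.002 and 17.4 with doxorubicin, a difference of 0.32 ± 0.08 in log2 (adjusted p = 0.0335, edgeR). EP400 stood at 5.09 and 5.62 FPKM in DMSO and 6.52 and 7.76 with doxorubicin, with 0.41 ± 0.09 (adjusted p = 0.0419, edgeR). Doxo replicate 2 was the highest library of both. Without it TRRAP had 0.16 (adjusted p = 0.417, edgeR) and EP400 had 0.28 (adjusted p = 0.145, edgeR). Both calls were lost when a mean normalised count of 50 was required (adjusted p = 0.0501 and 0.0629, edgeR), and that of TRRAP when the 4 libraries were fitted alone (0.198). Both were also lost without DMSO replicate 1 (adjusted p = 0.310 and 0.441, edgeR) and DMSO replicate 2 (0.199 and 0.0527), and that of TRRAP without 1035+Doxo replicate 1 (0.107) or 2 (0.110).

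Likeness was described by the Pearson correlation of log2 CPM over the 8 libraries, which share 4 treatments and the large effect of 1035, among 10126 genes with a mean of at least 10 CPM. MYC and MLXIP were nearly mirror images, with r = -0.995, and MYC and MXI1 had r = -0.978. MAX and MXI1 had r = 0.983, MLX and MYC r = 0.938, and MNT and MGA r = 0.237. The genes most like MYC were BAG2 (r = 0.999), ZFP91 (0.999) and ABHD3 (0.998), and the most unlike were MPRIP and F11R (both -0.997) and ANKS1A (-0.996). Among the genes most like MLXIP were F11R (r = 0.998) and MPRIP (0.997), and the most unlike were IMMT (-0.999), MRPL15 (-0.997) and NUP205 (-0.997). F11R and MPRIP thus stood at opposite ends for MYC and MLXIP. The 8 libraries fell mainly into those with and without 1035, and these correlations say nothing of shared control.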

How the data were processed

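RNA abundance in SupB15 was read from 8 libraries, 2 per treatment, grouped by the sample labels. Per the labels' protocols, stranded TruSeq libraries followed Ribo-Zero Gold depletion and were read as single 50-base reads. The submitters' processing notes name Novoalign 2.08.01, the build hg19 and DESeq2 1.4.5. The annotation, the read counter and its strand setting were not given in the sources used here.

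The authors deposited 4 tables, with raw counts per gene, per the file headers, for the libraries of 2 groups in each. The deposited FPKM values are counts scaled by gene length and reads, and were used to recover each gene's length (members agreed within 0.298% across tables). The log2 fold changes deposited beside them come from the authors' own comparisons. The deposited adjusted p-values are likewise the authors'. All 132880 counts held by 2 tables were equal. Of 17849 genes, 16608 had counts in all tables, and 1241 were left out (at most 1.02% of reads).

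The filter of edgeR 4.0.16 (filterByExpr, R 4.3.3) removed 288 genes. The other 16320 were normalised by TMM and fitted with 4 group means over 8 libraries by the robust quasi-likelihood model, with 4 residual degrees of freedom and a common biological coefficient of variation of 4.57%. P-values were adjusted by Benjamini-Hochberg over all genes at an FDR of 0.05, and the fit was tested on simulated data. Against counting noise, the chi-square of the spread within a group came to 1.77 per degree of freedom for DMSO, 3.10 for 1035, 4.52 for Doxo and 2.17 for the combination. P-values rest on a spread between samples estimated for each gene over the 4 groups together and drawn toward that of other genes. They do not measure the spread of each group by itself.

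Alternatives were DESeq2 size factors, DESeq2 1.42.0, no filter, a mean normalised count of at least 50, a replicate block, a non-robust fit, the libraries of 1 comparison alone, and leaving out each library. Leaving out 1035 replicate 2 and Doxo replicate 2 together was added after seeing the data. Named list genes were the 3 with the smallest p in each direction among those that passed, and a few genes so selected are not reported here. The members and lists were chosen with earlier results of these data known. Motifs were searched in RefSeq promoters (GRCh38.p14), and exon overlaps were taken from GENCODE 29 (GRCh38) by gene name.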

Additional observations from a re-analysis of the deposited data

How the results depend on the processing

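In 1035 against DMSO and in the combination against doxorubicin, no member changed direction in any of 160 refits each, and 3 to 4 members rose and 2 to 3 fell when 1 library was left out. For doxorubicin against DMSO 0 to 1 members rose (1 without Doxo replicate 1). In that comparison, the combination against 1035 and the interaction, 7, 20 and 19 refits turned the direction of a member, none past the threshold, and the cause was not tested. Doxorubicin against DMSO: MYC was 0.016 with 1035 replicate 2 and Doxo replicate 2 both left out, and MAX 0.0062 at a mean count of 50. Leaving out 1 library gave -0.069 to 0.014 for MYC, -0.078 to 0.051 for MAX, -0.046 to 0.14 for MXD1 and -0.0046 to 0.080 for MXD4. Combination against 1035: with DESeq2 size factors, DESeq2 and a mean count of 50, MYC was -0.0026, -0.0026 and -0.0024, MGA -0.0037, -0.0037 and -0.0032, and MLX -0.0040, -0.0044 and -0.0038. With both libraries left out MGA was -0.070. Leaving out 1 library gave -0.021 to 0.028 for MYC, -0.028 to 0.039 for MAX, -0.14 to 0.21 for MNT, -0.070 to 0.079 for MGA and -0.090 to 0.095 for MLX. Interaction: MAX was -0.0058 at a mean count of 50, and with both libraries left out MYC was -0.00025, MXD3 0.043, MNT 0.10 and MGA -0.058. Leaving out 1 library gave -0.0099 to 0.072 for MYC, -0.045 to 0.084 for MAX, -0.094 to 0.055 for MXD3, -0.22 to 0.13 for MNT, -0.0069 to 0.14 for MGA and -0.050 to 0.14 for MLX.

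Deviations of same-numbered libraries correlated between -0.086 and 0.094, so no shared deviation by replicate number was seen over the genes compared. This does not show how the samples were set up. With a replicate block 4 members rose and 2 fell in each comparison that adds 1035, and 0 passed elsewhere. The block changed the interaction from 0 to 12 genes lower, and raised the co-activator count with 1035 from 1 to 2.

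Over all genes, leaving out 1 library gave 28 to 634 genes higher and 5 to 546 lower for doxorubicin against DMSO, 29 to 87 and 1 to 56 for the combination against 1035, and 1 to 64 and 0 to 175 for the interaction, where the most calls came without Doxo replicate 1. DESeq2 called 58 genes higher for doxorubicin against DMSO, the non-robust fit 56 lower, and fits of 4 libraries alone 76 and 58 there and 93 and 58 for the combination against 1035. With both libraries left out 2 genes were lower in the interaction. Listed genes that rose numbered 9 to 12 with 1035 and 6 to 11 in the combination against doxorubicin when 1 library was left out, and those that fell 33 to 40 and 34 to 41. At a mean count of 50, 4 co-activators rose with 1035. Depth limits MXI1, at 105 to 276 reads in a library, and ARRDC4, whose mean count was 18.2.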

Other observations

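The 30 listed E-box targets of MYC were also divided by their promoter letters. RefSeq promoters were at hand for 25 of them, and 10 held CACGTG in the 250 bases before a start: APEX1, CDK4, EIF4E, HSPD1, HSPE1, LDHA, ODC1, PRDX3, SRM and TERT. Of these 10, 8 fell with 1035 against DMSO (median log2 fold change -0.50), and of the 15 without the letters 12 fell (median -0.42). Over all genes tested 24.8% fell there. In the combination against doxorubicin 8 of 10 fell (median -0.53) and 12 of 15 (median -0.37), where 22% of all genes fell. The share that fell was thus equal in both sets. This is a description of listed genes, with no test, and letters outside the window were not read. Falls of ODC1, CAD and other targets were known when the list was chosen. SRM, which makes spermidine, had -0.49 ± 0.10 with 1035 and -0.69 ± 0.09 in the combination against doxorubicin, and APEX1, a DNA repair nuclease, had -0.07 ± 0.06 and -0.14 ± 0.06 and did not pass in either. Both were chosen after their values were seen.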
